A study of Homo sapiens with 9 samples.

Results

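The expression of 10 ovarian serous lineage markers was examined in OVCA433, an established human cell line labelled as ovarian serous adenocarcinoma, after knockdown of MPZL3, a transmembrane protein with a predicted role in cell adhesion. The set was chosen by name, for known use as lineage or diagnostic genes, with earlier results of these data known. It held the transcription factors PAX8, WT1, SOX17, EMX2 and MECOM, the hormone receptors ESR1 and PGR, and the surface or secreted antigens FOLR1, MSLN and WFDC2. Each of the 10 matched 1 of the 58676 rows of the gene count table. Messenger RNA was sequenced from 9 libraries in 3 groups, which were cells with an shRNA control vector and genotype labelled WT, cells with shRNA #1 against MPZL3 (hairpin #1), and cells with shRNA #3 against MPZL3 (hairpin #3). Each group had replicates A, B and C, described by the study as biological replicates, and all cells had been transduced with a lentiviral vector. The study calls the OVCA433 control an empty vector in 1 place and a scrambled hairpin in another, no untransduced cells were analysed here, and neither the labels nor the methods say that a group was a single clone.

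PAX8 and SOX17 are transcription factors of the Mullerian epithelium, the tissue that forms the fallopian tube and uterus, and both remain active in most serous carcinomas. WT1 marks serous carcinomas among the ovarian types. ESR1 and PGR encode the estrogen and progesterone receptors, and PGR is a classical target of ESR1. FOLR1 is a membrane receptor that takes up folate, MSLN encodes mesothelin, a membrane-anchored glycoprotein, and WFDC2 encodes HE4, a secreted protein measured in serum in the follow-up of ovarian cancer.

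The gene targeted by both hairpins was measured first. MPZL3 was at 15.6, 21.9 and 21.0 CPM in control libraries A, B and C, at 1.87, 1.98 and 1.80 CPM with hairpin #1, and at 1.94, 0.988 and 1.80 CPM with hairpin #3. CPM are counts divided by library size after TMM correction, and the library totals ran from 16850854 to 23890191 counts. The log2 fold change of both hairpins against control was -3.49 ± 0.19 (SE, adjusted p = 6.87e-08, edgeR quasi-likelihood test). Of the markers named for the labelled cell type, KRT7, a simple epithelial keratin, was at 1810 to 4235 CPM in all 9 libraries, whereas WT1 had no count in any. EPCAM, an epithelial adhesion molecule, was at 376 to 420 CPM in control and at 4.68 to 9.94 CPM in the knockdown libraries, and MUC16, which encodes CA125, was at 2.09 to 4.11 CPM in control and had no count in the knockdown libraries. The serous label was therefore met by PAX8 and KRT7 in every group, by EPCAM and MUC16 mainly in control, and by WT1 in none.

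WFDC2 fell to 2.29% of its control mean with hairpin #1 and to 1.33% with hairpin #3, PAX8 about doubled with both, SOX17 rose by nearly as much, and MSLN rose with hairpin #3. MECOM and ESR1 did not pass the test in the main fits. FOLR1 had too few counts for that test, with 24 over the control and 1 over the knockdown libraries, and WT1, EMX2 and PGR had no count at all. In RNA from whole cultures, fewer cells that express a gene and less of its RNA per cell cannot be told apart. Of the 10 markers, 6 had enough counts for the test across 15975 genes (PAX8, SOX17, MECOM, ESR1, MSLN and WFDC2). Calls required an adjusted p under 0.05 together with a change of 1 or more, up or down, on the log2 scale. With both hairpins against control, 2 of these 6 were called, beside 14.7% of all tested genes. PAX8 was the 1 called higher (7.26% of tested genes were called higher) and WFDC2 the 1 called lower (7.4% were called lower). At the adjusted p alone, 4 of the 6 passed, beside 33.0% of tested genes. With hairpin #1, 2 of 6 were called beside 16.3%, and 3 passed the adjusted p alone beside 37.8%. With hairpin #3, 3 of 6 were called beside 15.3%, and 4 passed the adjusted p alone beside 34.7%. Between the hairpins, none of the 6 was called by edgeR or DESeq2, beside 3.93% of tested genes with edgeR. MSLN was the 1 that passed the adjusted p alone there, beside 11.6%. Before adjustment, 3 of the 6 had a p under 0.05, and the share of all tested genes at that cut-off was not counted. The median log2 fold change of the 6 was 0.28 with both hairpins against control, and that of all tested genes was 0.0045. Both hairpin comparisons share the 3 control libraries and are not independent of each other.

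**Figure D1:**
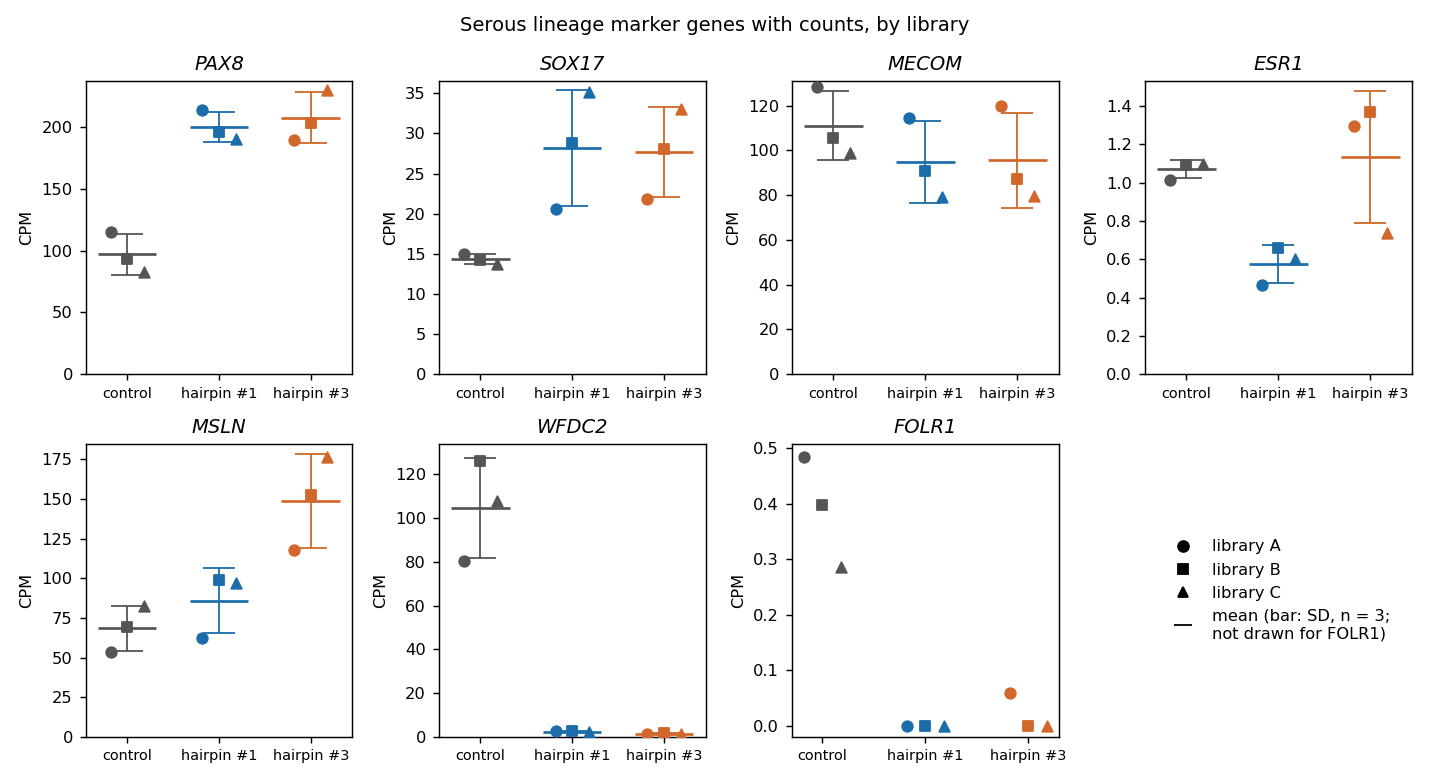
CPM (linear axes, TMM scaled) of the 7 markers with any count, in control, hairpin #1 and hairpin #3 libraries, with the replicate letter as the symbol and horizontal lines at the mean with bars of 1 SD (n = 3, not drawn for FOLR1). All 6 knockdown libraries lie above the controls for PAX8 and SOX17 and below them for WFDC2 and FOLR1, and the groups overlap for MECOM.

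PAX8 (ENSG00000125618, chromosome 2, 113215997 to 113278950, minus strand, GRCh38) is the paired-box factor most used to assign a tumour to the Mullerian lineage. It was at 115, 93.4 and 82.3 CPM in control libraries A, B and C. With hairpin #1 it was at 214, 196 and 191 CPM, and with hairpin #3 at 189, 203 and 230 CPM. All 6 knockdown libraries were above the highest control, and the hairpin groups overlapped each other. The log2 fold change was 1.07 ± 0.12 (SE, adjusted p = 2.25e-05) with both hairpins against control, 1.04 ± 0.13 (adjusted p = 2.04e-05) with hairpin #1 and 1.10 ± 0.13 (adjusted p = 1.49e-05) with hairpin #3. The difference between hairpins was 0.05 ± 0.12 (adjusted p = 0.852). The pooled value lay just over the fold threshold, and without control library C it was 0.96, under that threshold, as were the values of 0.94 with hairpin #1 and 0.99 with hairpin #3. The hairpin #1 value was also 0.99 without hairpin #1 library A, and PAX8 passed the adjusted p in each of these fits. PAX8-AS1, a transcript read from the opposite strand of the locus, was at 12.2, 6.12 and 5.30 CPM in control, at 25.6, 19.8 and 17.7 CPM with hairpin #1 and at 21.9, 19.1 and 20.6 CPM with hairpin #3. Its log2 fold change with both hairpins was 1.40 ± 0.24 (adjusted p = 0.000772). The exons of PAX8 shared 685 bases (9.26%) with those of PAX8-AS1 in GENCODE 29, and the libraries carried no strand, so reads from the shared bases cannot be told apart. PAX8-AS1 lies at 113211522 to 113276581, across most of PAX8, so reads of unspliced PAX8 RNA could also be counted to it. The part of such reads in its rise was not tested.

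SOX17 (ENSG00000164736, chromosome 8, 54457935 to 54460888, plus strand) encodes an HMG-box factor that works with PAX8 in Mullerian cells. It was at 14.96, 14.28 and 13.76 CPM in control, at 20.6, 28.8 and 35.1 CPM with hairpin #1 and at 21.8, 28.1 and 33.0 CPM with hairpin #3. The controls were tight, the knockdown libraries were spread, and no knockdown library was as low as a control. With both hairpins its log2 fold change was 0.96 ± 0.17 (adjusted p = 0.00106). It was 0.98 ± 0.19 (adjusted p = 0.00101) with hairpin #1 and 0.95 ± 0.19 (adjusted p = 0.00136) with hairpin #3, so SOX17 passed the adjusted p but not the fold threshold in each comparison. Leaving out hairpin #1 library A or hairpin #3 library A, the lowest of each group, gave 1.03 or 1.02 with both hairpins, past both thresholds. Without those libraries it was 1.15 with hairpin #1 and 1.09 with hairpin #3, and it was 1.01 with hairpin #1 without control library A. The hairpins differed by -0.03 ± 0.18 (adjusted p = 0.960).

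MECOM (ENSG00000085276, chromosome 3, 169083499 to 169663618, minus strand) encodes EVI1, a zinc-finger factor whose locus is often amplified in serous carcinoma. It was at 128, 106 and 98.8 CPM in control, at 115, 90.6 and 78.9 CPM with hairpin #1 and at 120, 87.3 and 79.4 CPM with hairpin #3. The 3 groups overlapped, and library A was the highest in each of them. With both hairpins its log2 fold change was -0.22 ± 0.15 (adjusted p = 0.286). In a model with the replicate letter as a block, MECOM passed the adjusted p but not the fold threshold (-0.23, adjusted p = 0.0182).

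WT1 (ENSG00000184937, chromosome 11, 32387775 to 32435630, minus strand), a zinc-finger factor, and EMX2 (ENSG00000170370, chromosome 10, 117542444 to 117549546, plus strand), a homeobox factor of urogenital development, had 0 counts in all 9 libraries. Such a zero allows up to 3 counts, which is 0.129 to 0.177 CPM depending on the library, and covers counting error only. The antisense genes WT1-AS and EMX2OS also had no count in any library.

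ESR1 (ENSG00000091831, chromosome 6, 151656691 to 152129619, plus strand) was barely detected, with 10 to 25 counts per library. It was at 1.02, 1.09 and 1.10 CPM in control, at 0.467, 0.661 and 0.600 CPM with hairpin #1, and at 1.29, 1.37 and 0.736 CPM with hairpin #3. The hairpin #1 libraries were all below the controls, while hairpin #3 had 2 libraries above and 1 below. The log2 fold change was -0.89 ± 0.35 (adjusted p = 0.0637) with hairpin #1 and 0.07 ± 0.33 (adjusted p = 0.899) with hairpin #3, and the difference between hairpins was 0.96 ± 0.35 (adjusted p = 0.106), so none of these passed the test at this depth. PGR (ENSG00000082175, chromosome 11, 101029624 to 101130524, minus strand) had 0 counts in all 9 libraries, with the same limit as WT1.

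FOLR1 (ENSG00000110195, chromosome 11, 72189558 to 72196301, plus strand) did not pass the filter on low counts. There were 10, 8 and 6 counts in control libraries A, B and C, and the 6 knockdown libraries held 1 count in all, in hairpin #3 library A. Control thus had 24 counts against 1, a ratio of knockdown to control of 0.0212 with an exact 95% counting interval of 0.000515 to 0.130. The exact two-sided permutation test over the 84 ways to draw 3 controls gave p = 0.0238, the smallest it can give for groups of these sizes.

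MSLN (ENSG00000102854, chromosome 16, 643262 to 768865 in the count table, plus strand) was at 53.7, 69.1 and 82.3 CPM in control. With hairpin #1 it was at 62.1, 98.7 and 96.8 CPM, and with hairpin #3 at 118, 153 and 177 CPM. Hairpin #1 overlapped control, whereas every hairpin #3 library lay above every other library, and library A was the lowest of each group. The log2 fold change was 0.33 ± 0.20 (adjusted p = 0.216) with hairpin #1 and 1.12 ± 0.20 (adjusted p = 0.000598) with hairpin #3. The hairpin #1 value passed the adjusted p without hairpin #1 library A (0.51, adjusted p = 0.0328) or with no filter on low counts (adjusted p = 0.0292). It also passed in a model with the replicate letter as a block (0.32, adjusted p = 0.00278), and was under the fold threshold in each of these fits. The difference between the hairpins was itself past the test, at 0.79 ± 0.20 (adjusted p = 0.0186). With both hairpins as 1 arm the value was 0.78 ± 0.28 (adjusted p = 0.0489), and 7 of the 9 fits that left out a library gave an adjusted p above 0.05, up to 0.177 without control library A. The hairpin #3 value fell just under the fold threshold without control library A (0.98) or hairpin #3 library C (0.98). The difference between hairpins also missed the threshold without hairpin #3 library B (adjusted p = 0.0682) or C (adjusted p = 0.0711).

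WFDC2 (ENSG00000101443, chromosome 20, 45469706 to 45481532, plus strand) had the largest change of the 6 tested markers. It was at 80.3, 126 and 108 CPM in control libraries A, B and C. With hairpin #1 it was at 2.71, 2.49 and 1.97 CPM, and with hairpin #3 at 1.29, 1.65 and 1.24 CPM. The groups did not overlap, and the highest knockdown library was far below the lowest control. The log2 fold change was -5.78 ± 0.22 (adjusted p = 3.13e-09) with both hairpins, -5.45 ± 0.19 (adjusted p = 3.26e-10) with hairpin #1 and -6.23 ± 0.21 (adjusted p = 2.09e-10) with hairpin #3. Each hairpin #3 library was below each hairpin #1 library, but the difference of -0.78 ± 0.25 had an adjusted p of 0.0654. It rested on 46 to 58 counts per hairpin #1 library and 22 to 30 per hairpin #3 library, and it passed the adjusted p in 5 of 17 other fits, DESeq2 among them (adjusted p = 0.0276).

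The sequence around the WFDC2 start is shown because it was the only window among those of the markers to hold a match to the hexamer CACCTG or its reverse complement CAGGTG, an E-box that repressors of the SNAI and ZEB families are known to bind. The motif was chosen after these windows had been seen, so the matches are a description and not a test. RefSeq windows of 300 bases (250 before and 50 from the start, GRCh38.p14) were at hand for 7 of the 10 markers, with 19 windows in all, counting alternative starts. None was at hand for SOX17, MSLN and FOLR1. Of all 35116 windows in the table, 20.6% held at least 1 match on either strand and 3.49% held 2 or more. The WFDC2 window held 2, both reading CACCTG on the strand of the gene, beginning 17 bases before the RefSeq start and 1 base after it, 18 bases apart. The other 18 windows, those of PAX8, MECOM, ESR1, EMX2, WT1 and PGR, held none of these letters. The capitals below mark the matches, and the upstream sequences of the marker called lower and the marker called higher are given beside them, each 5′ to 3′ on the strand of its gene.
WFDC2, matches, chr20:45469733-45469762, plus strand: ccgCACCTGagcatcggctcaCACCTGcac
WFDC2, upstream, chr20:45469503-45469705, plus strand: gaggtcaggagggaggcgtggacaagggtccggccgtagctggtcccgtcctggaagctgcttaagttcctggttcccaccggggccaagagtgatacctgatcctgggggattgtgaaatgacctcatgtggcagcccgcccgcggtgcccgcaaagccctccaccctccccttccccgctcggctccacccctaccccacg
PAX8, upstream, chr2:113278951-113279171, minus strand: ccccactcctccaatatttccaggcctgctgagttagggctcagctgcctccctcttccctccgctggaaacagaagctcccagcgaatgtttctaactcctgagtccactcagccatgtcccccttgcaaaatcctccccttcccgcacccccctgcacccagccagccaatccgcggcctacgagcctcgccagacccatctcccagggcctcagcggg
A match is a run of letters and not a measured binding site, and no binding was measured in these libraries.

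**Figure D2:**
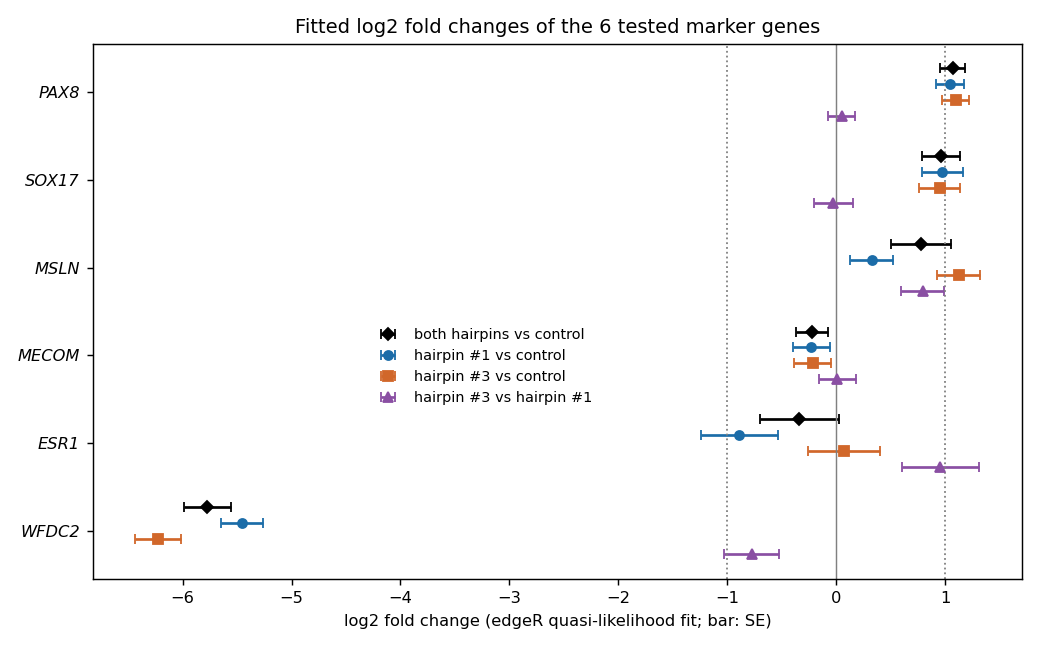
Log2 fold change (horizontal axis) of the 6 tested markers in 4 comparisons, with bars of 1 SE from the edgeR fit and dotted lines at the fold threshold. PAX8 and SOX17 have nearly equal values with both hairpins, MSLN and ESR1 lie apart by 0.79 and 0.96, and WFDC2 lies near -6.

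The order of the markers was compared on a scale of CPM per kilobase of gene length, which sets levels of different genes side by side only roughly. The lengths were equal or close to all annotated exon bases of each gene, not to the transcript expressed. The order of close levels can therefore depend on the annotation. In control, WFDC2 was highest at 75.7 ± 16.6 (SD, n = 3), then MSLN at 25.9 ± 5.4, PAX8 at 13.1 ± 2.3, MECOM at 12.2 ± 1.7, SOX17 at 6.12 ± 0.26, FOLR1 at 0.247 ± 0.063 and ESR1 at 0.0785 ± 0.0034. Only PAX8 and MECOM overlapped among neighbours in this order. With hairpin #1 the order was MSLN at 32.5 ± 7.8, PAX8 at 27.0 ± 1.7, SOX17 at 12.0 ± 3.1, MECOM at 10.4 ± 2.0, WFDC2 at 1.73 ± 0.27 and ESR1 at 0.0423 ± 0.0073. MSLN overlapped PAX8 there, and SOX17 overlapped MECOM. With hairpin #3 it was MSLN at 56.4 ± 11.2, PAX8 at 28.0 ± 2.8, SOX17 at 11.8 ± 2.4, MECOM at 10.5 ± 2.3, WFDC2 at 1.01 ± 0.16 and ESR1 at 0.0832 ± 0.0254, with SOX17 and MECOM overlapping. WFDC2 thus went from the first place to the fifth in both knockdown groups on the length-scaled level.

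**Figure D3:**
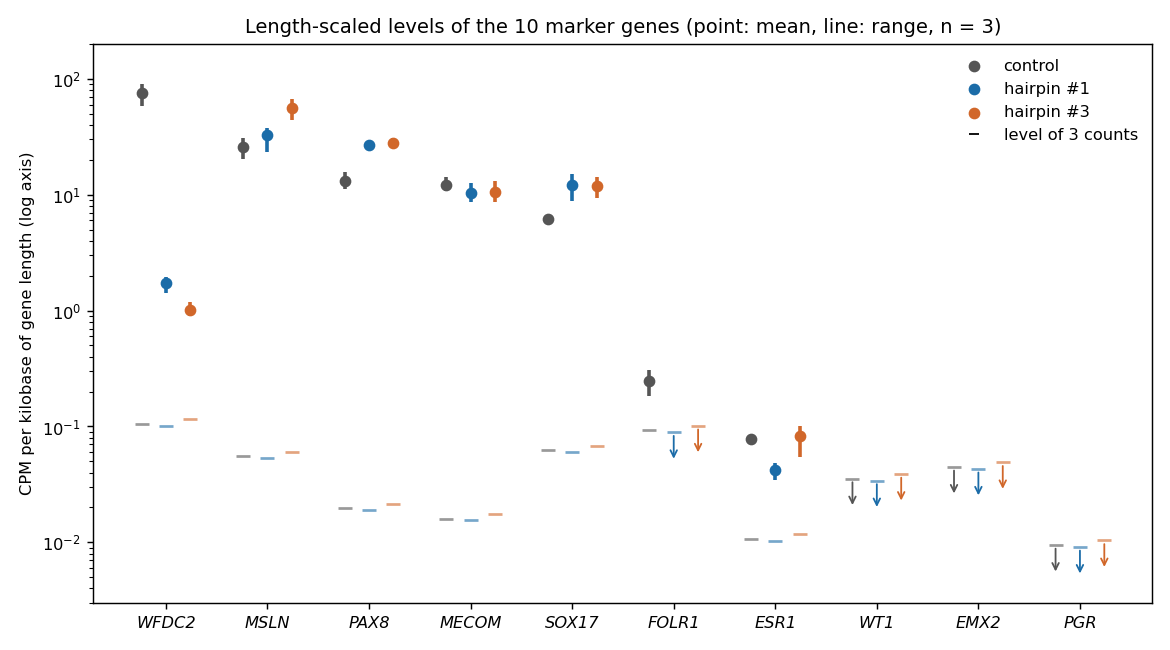
CPM per kilobase of gene length (log axis) of the 10 markers in the 3 groups, with points at the mean, lines over the range of 3 libraries, dashes at the level of 3 counts, and arrows for genes at or below it. WFDC2 passes from the top of the control order to below MECOM in both knockdown groups, while WT1, EMX2 and PGR stay below the limit throughout.

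The genes around each marker were examined as a measure of regional shifts in expression. The median log2 fold change with both hairpins of the 50 nearest genes that averaged 10 CPM or more was 0.05 around PAX8, 0.08 around MECOM, 0.02 around ESR1 and -0.0049 around MSLN. It was -0.26 around SOX17 and -0.17 around WFDC2. SOX17 therefore stood 1.22 above its neighbourhood, and the value of WFDC2 relative to its own was -5.61. Between the hairpins, the neighbourhood of WFDC2 was 0.30 higher with hairpin #3, while WFDC2 itself was lower. The neighbours of MSLN differed by 0.06 between the hairpins, against 0.79 for MSLN, and the part of regional shifts in these results was not tested.

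The protein-coding genes with the most similar profiles were found by the root mean square distance of centred log2 values over the 9 libraries, among 13176 genes. Before the log, 0.5 was added to each CPM, which compresses the changes of genes near 0 CPM. The nearest to PAX8 were VASH2 (distance 0.0755) and SP5 (0.106). PARP3 (0.104) and TMEM44 (0.130) were nearest to SOX17, CNOT1 (0.0471) and SLC25A30 (0.0491) to MECOM, and SLX4IP (0.111) and METTL10 (0.132) to ESR1. THBS3 (0.105) and APLP1 (0.122) were nearest to MSLN, and both were likewise higher with hairpin #3 than with hairpin #1, by 0.77 and 0.76 on the log2 scale. For WFDC2 the nearest were CDH3, which encodes P-cadherin (0.251), and KDF1 (0.287). The distance is not scaled to the size of a change, and the centred values of WFDC2 itself had a root mean square of 2.60, against 0.240 to 0.542 for the other 5. CDH3 averaged 198 CPM in control, 4.11 CPM under hairpin #1 and 2.66 CPM under hairpin #3.

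Genes that accompany the markers in serous and secretory epithelium were set beside them. This list and those below were chosen with earlier results of these data known, so their counts and medians are descriptions and not tests. Over all tested genes, 14.7% were called with both hairpins, 7.26% higher and 7.4% lower. Of 18 such genes, 16 were tested, 12 were called lower and 1 higher with both hairpins, and their median log2 fold change was -3.86 beside 0.0045 for all tested genes. VTCN1, which encodes the antigen B7-H4, was at 3.05 to 7.69 CPM in control and had no count in any knockdown library, at least 37.1-fold lower against 3 counts in each library. By the same reckoning, MUC16 was lower by a factor of at least 21.2. LCN2, a secreted iron-carrier protein, had a log2 fold change of -8.55 ± 0.47 (adjusted p = 7.35e-08), and CLDN4, a tight junction claudin, -6.41 ± 0.31 (adjusted p = 2.00e-08). KRT7, at -0.47 ± 0.19 (adjusted p = 0.0847), and PRAME, a tumour antigen, at 0.17 ± 0.10 (adjusted p = 0.224), did not pass with both hairpins, and PRAME is named here after its value was seen. With hairpin #3, KRT7 passed the adjusted p but not the fold threshold (-0.63, adjusted p = 0.0280). The 1 called higher was CDH6, a cadherin, also named after its values were seen: it was at 39.5 to 51.8 CPM with hairpin #1 and at no more than 0.647 CPM in every other library.

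Of 17 factors of Mullerian duct development, 8 were tested, 2 were called higher and 2 lower (14.7% of all tested genes were called), with a median of 0.12. LHX1, a homeobox factor needed for the duct to form, rose by 2.04 ± 0.19 on the log2 scale (adjusted p = 5.91e-06), from a mean of 10.3 CPM in control to 44.2 and 40.2 CPM with hairpins #1 and #3. WNT7A, a secreted signal of the duct epithelium, went from 17.9 to 0.182 and 0.0853 CPM (log2 fold change -6.94 ± 0.33, adjusted p = 1.86e-08). HOXA10, a homeobox factor of the uterus, fell by 1.48 ± 0.21 (adjusted p = 0.000156). Members of this list thus moved in opposite directions, as PAX8 and WFDC2 did.

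Among 24 partners and targets of the steroid receptors, 19 were tested, 2 were called higher and 3 lower, beside 14.7% of all tested genes called. Their median was -0.05. AGR2, an endoplasmic reticulum protein induced by estrogen in breast cells, held 197 counts over the 3 controls and 5 over the 6 knockdown libraries, a ratio of 0.0129 (exact 95% counting interval 0.00414 to 0.0306). FOXA1, the pioneer factor of ESR1 in breast cells, had a log2 fold change of -1.43 ± 0.16 (adjusted p = 2.46e-05). GREB1, an estrogen target, rose by 2.78 ± 0.61 (adjusted p = 0.00426) from a mean of 0.226 CPM, and CA12, a carbonic anhydrase, by 2.70 ± 0.72 (adjusted p = 0.0129) from 0.214 CPM. CA12 lost the call without control library A (adjusted p = 0.0556) or C (adjusted p = 0.0635). Of 13 folate genes, all were tested and 1 was called, with a median of 0.19. That gene was SLC46A1, the proton-coupled folate transporter, at -1.34 ± 0.20 (adjusted p = 0.000264).

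Of 14 paralogues and antisense partners of the markers, 5 were tested, with 3 called higher and 1 lower. Beside them, 7.26% of all tested genes were called higher and 7.4% lower. The median of the 5 was 1.20. SOX18, a relative of SOX17 in the same subgroup, rose by 1.72 ± 0.29 (adjusted p = 0.000710), while SOX7, the other relative, had a value of 0.14 ± 0.15 (adjusted p = 0.504). MSLNL, a gene like MSLN, had a value of 1.20 ± 0.40 (adjusted p = 0.0372), and WFDC3, a relative of WFDC2, one of -2.33 ± 0.71 (adjusted p = 0.0259), each at a mean of at most 2.67 CPM in any group. In the edgeR fits by hairpin, both were called with hairpin #3 (adjusted p = 0.0225 for MSLNL and 0.0208 for WFDC3). Neither passed with hairpin #1 (adjusted p = 0.0784 and 0.0637). MSLNL missed the threshold without 1 of 5 libraries (control A or B, hairpin #1 C, hairpin #3 B or C), with adjusted p up to 0.141, and WFDC3 did so without control B (adjusted p = 0.0582) or C (adjusted p = 0.138).

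Markers of cells other than serous epithelium were measured in the same libraries. Of 12 mesothelial markers, 5 were tested, with 1 called higher and 1 lower (14.7% of all tested genes were called), and a median of 1.02. Their summed level was 79.7 to 98.2 CPM in control, 44.9 to 75.1 with hairpin #1 and 128 to 150 with hairpin #3, and CALB2, which encodes calretinin, was at most 0.339 CPM in any library. UPK3B, a uroplakin, fell by 6.49 ± 0.22 (adjusted p = 1.28e-09) and BNC1, a zinc-finger factor, rose by 1.83 ± 0.19 (adjusted p = 1.48e-05). PDPN, a membrane mucin, was lower with hairpin #1 (log2 fold change -5.47) and higher with hairpin #3 (2.63). The order of the sums rested on PDPN, since the other 11 markers summed to 66.1 to 86.6 CPM in control, 44.4 to 75.0 with hairpin #1 and 49.4 to 70.7 with hairpin #3. LRRN4 at 1.02 ± 0.43 (adjusted p = 0.0912) and GPM6A at -0.78 ± 0.29 (adjusted p = 0.0604) did not pass with both hairpins. LRRN4 passed the adjusted p without control A (0.0373) or hairpin #1 C (0.0456), and GPM6A without hairpin #3 C (0.0222). MSLN is itself also a mesothelial gene. With hairpin #3, 3 of the 5 tested markers were called higher and 1 lower, beside 15.3% of all tested genes called in that comparison. Those higher were PDPN, BNC1 (1.73) and LRRN4 (1.26, adjusted p = 0.0377). The sum without PDPN, which was left out after its values were seen, did not rise with hairpin #3, and the hairpin groups overlapped in it. UPK3B held 46.8 to 69.6 CPM of that sum in control and at most 1.12 CPM in any knockdown library.

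Of 11 markers of other tumour lineages reported here, 3 were tested, with 2 called, both lower (7.4% of all tested genes were), and a median of -1.31. GATA3, a factor of breast and urothelial cells, was at 88.0 to 106 CPM in control and 19.4 to 27.0 CPM in the knockdown libraries, with a log2 fold change of -2.12 ± 0.11 (adjusted p = 4.16e-08). POU5F1, a factor of germ cells, was at -1.31 ± 0.40 (adjusted p = 0.0270, but 0.127 without control A and 0.0913 without control B), and INHA, an inhibin subunit, at -0.84 ± 0.38 (adjusted p = 0.112). In the edgeR fit with hairpin #3, POU5F1 did not pass (adjusted p = 0.0584), whereas INHA was called lower (-1.38, adjusted p = 0.0135). Of 9 markers of cells the culture should lack, 3 were tested and 1 was called, higher, with a median of 0.27. Their summed level was 0.896 to 1.55 CPM in control, 2.80 to 4.63 with hairpin #1 and 4.39 to 6.03 with hairpin #3. CDH5, the cadherin of endothelial cells, was the 1 called, with 6 counts over the controls and 367 over the knockdown libraries, a ratio of 31.1 (exact 95% counting interval 14.1 to 85.3). The other endothelial markers stayed low, with PECAM1 at most 0.235 CPM and VWF at most 0.713 CPM in any library, and PTPRC, CD14, CD3E, CD68, HBA1 and HBB were at or below 0.888 CPM throughout.

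**Figure D4:**
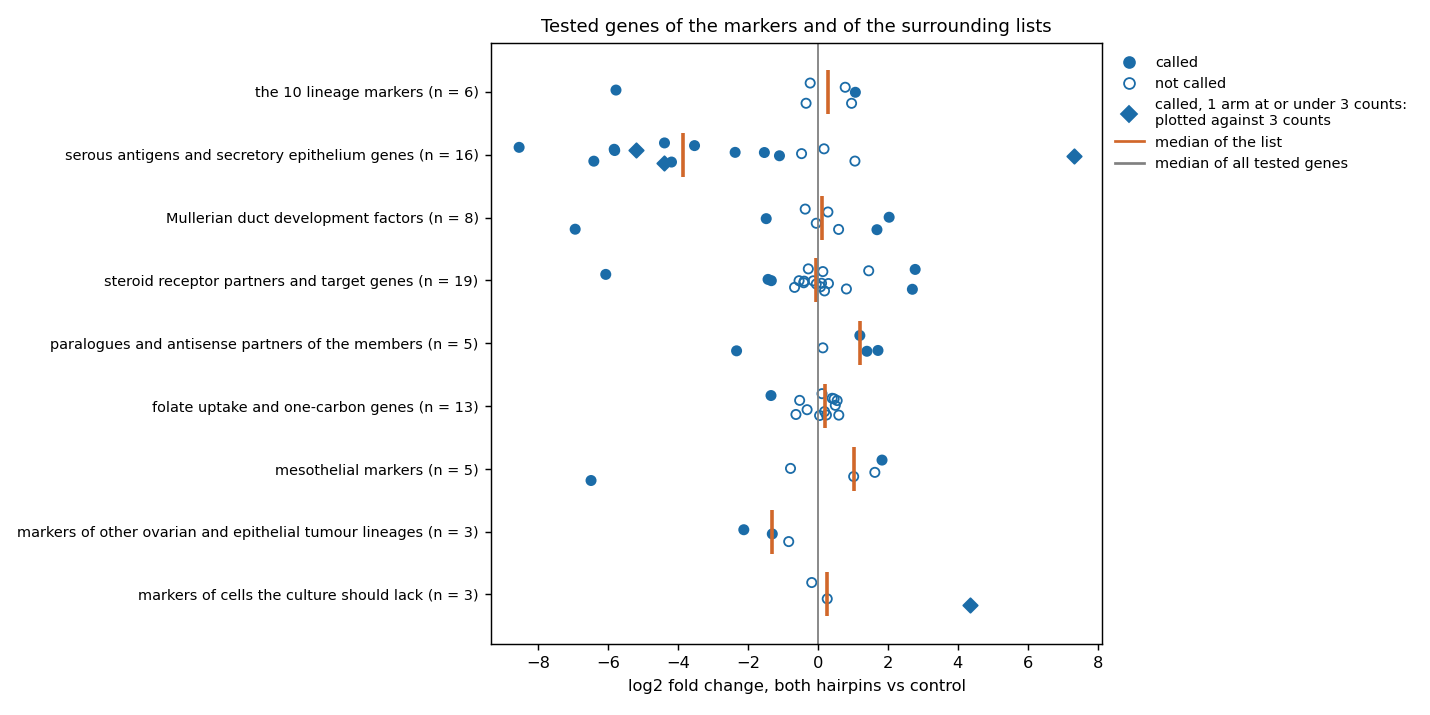
Log2 fold change with both hairpins against control (horizontal axis) of the tested genes among the 10 markers and in 8 lists of accompanying genes, with filled points for called genes, diamonds for called genes with 1 arm at or under 3 counts per library (plotted against 3 counts), orange lines at list medians and a grey line at the median of all tested genes. The serous and secretory epithelium list has 12 genes called lower and a median of -3.86, while the medians of the markers, the duct factors and the steroid receptor list lie between -0.05 and 0.28. The markers and lists were chosen with earlier results of these data known.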

How the data were processed

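OVCA433 cells carrying the control vector, hairpin #1 or hairpin #3 were compared, with 3 libraries each. The counts were deposited by the authors as raw reads per gene, without normalization. Per the labels, poly(A) RNA gave non-directional libraries, and the submitters' processing notes name HISAT2 2.0.5, featureCounts 1.5.0-p3 and hg38. Gene length was also deposited, and CPM and CPM per kilobase were computed here.

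Genes were filtered with filterByExpr (minimum count 10, minimum total 15), scaled with TMM and tested with edgeR 4.0.16 (glmQLFit, glmQLFTest) in R 4.3.3, and p-values were adjusted over 15975 genes by the Benjamini-Hochberg method. The pooled comparison had 2 arms, as in the study's methods, which used DESeq2. The other comparisons used a model of 3 groups. The SE of a log2 fold change came from its F value. The fits were tested on simulated data.

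All 10 markers are named, and from each accompanying list up to 4 genes called in the pooled comparison and with each hairpin (mean of at least 1 CPM) or all tested genes of lists with at most 5. Another gene on the list of other tumour lineages is not reported here, and the counts and median of that list leave it out. The members and lists were chosen with earlier results of these data known. All count table identifiers were in GENCODE 29, 95.2% at the same position. FOLR1 and MSLN were not, and their positions are those of the count table. Promoter sequences are from RefSeq (GRCh38.p14). Alternatives were other filters, scalings, thresholds and models, DESeq2 1.42.0, a block on the replicate letter, thinned counts and each library left out. Intervals and the limit of 3 counts cover counting error only.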

Additional observations from a re-analysis of the deposited data

Results flagged for a closer look

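Results were picked out where the direct test of hairpin #3 against hairpin #1 passed an adjusted p of 0.05 (edgeR quasi-likelihood test). Among the 6 tested markers this held for MSLN, with a log2 difference of 0.79 (adjusted p = 0.0186) and all 3 hairpin #3 libraries above all 3 hairpin #1 libraries.

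Among the genes named from the accompanying lists, the difference was 8.10 for PDPN (adjusted p = 3.08e-10), which was at 0.153 to 0.472 CPM with hairpin #1 and at 72.3 to 82.2 CPM with hairpin #3, on either side of 11.3 to 13.6 CPM in control. For CDH6, chosen after its values were seen, it was -7.16 (adjusted p = 2.04e-07). For CLDN4 it was 1.21 (adjusted p = 0.000518), for EPCAM 0.70 (adjusted p = 0.0128), for GREB1 1.39 (adjusted p = 0.0280) and for SOX18 0.70 (adjusted p = 0.0447). CLDN4 and EPCAM were called lower, and GREB1 and SOX18 higher, with each hairpin against control. Groups of 3 libraries were too small for a test of single outlying libraries.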

How the results depend on the processing

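Of 452 refits of the 6 tested markers, 411 kept their direction and side of the adjusted p threshold, 22 no longer passed it, 11 passed it newly and 8 changed sign. WFDC2 stayed called against control in all 17 fits that kept the thresholds (log2 fold change -5.93 to -5.63 with both hairpins). PAX8 was past both thresholds in 16 of 17 (0.96 to 1.21). With the 2-fold threshold inside the test, 1 marker was called in each comparison with control (adjusted p of PAX8 0.794 with both hairpins), and calls fell to 1317 (both hairpins), 1539 (hairpin #1), 1481 (hairpin #3) and 206 genes (between hairpins), from 2342, 2605, 2443 and 628. Leaving out 1 library gave 1 to 3 markers called with both hairpins or with hairpin #1, and 2 to 4 with hairpin #3, the 1 being without control library C. MSLN with both hairpins had an adjusted p of 0.0502 with library totals and 0.0508 with a mean of at least 1 CPM, and ranged from 0.00481 to 0.177 over the alternatives. ESR1 was not tested under that CPM filter.

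Apart from PDPN, the values that changed sign were past the adjusted p on neither side. ESR1 with hairpin #3 was -0.04 and -0.10 without its library A or B, in a range of -0.10 to 0.32 over the libraries left out. Between hairpins, PAX8 was -0.022 without hairpin #3 C (-0.022 to 0.11), SOX17 was 0.17 and 0.12 without hairpin #1 C or hairpin #3 A (-0.21 to 0.17), and MECOM was -0.02, -0.10 and -0.18 without hairpin #1 B, hairpin #1 C or hairpin #3 A. PTPRC was 0.13 and 0.09 without control A or hairpin #3 C (-0.60 to 0.13). PDPN with both hairpins was 1.63 in the 2-arm fit and -1.42 in the 3-group model (adjusted p = 1.71e-05), its hairpins having opposite signs.

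By their labels, replicates of different groups share only a letter. Deviations of same-letter libraries correlated at 0.0515 to 0.466 (7 of 9 over 0.1) and those of other letters at -0.437 to 0.185 (4 of 18 over 0.1), and not every library correlated best with its own letter. The A libraries of the groups correlated with each other at 0.401 to 0.466. Each A library correlated negatively with every B and C library of the other groups (-0.437 to -0.134). With the replicate block, 3 markers newly passed the adjusted p and none passed both thresholds newly. MECOM was at -0.23 with both hairpins (adjusted p = 0.0182), -0.24 with hairpin #1 (0.0107) and -0.23 with hairpin #3 (0.0141), MSLN at 0.32 with hairpin #1 (0.00278), and WFDC2 at -0.79 between hairpins (0.0186).

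At 10 to 25 counts per library, ESR1 could not be resolved. WT1, EMX2 and PGR in every library, and FOLR1 in the knockdown libraries, lay below the limit of 3 counts.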
